A study of Mus musculus with 36 samples.

Results

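The bile acid synthesis and FXR feedback genes are 10 liver genes that make, conjugate and export bile acids or hold their synthesis in check, namely *Cyp7a1*, *Cyp7b1*, *Cyp8b1*, *Cyp27a1*, *Baat*, *Nr0b2*, *Nr1h4*, *Abcb11*, *Fgfr4* and *Klb*. They were listed by gene symbol, with earlier results of these data known and with no measured value in the rule, and each matched 1 of the 38283 rows of the gene count table. All 10 were among the 13945 genes that passed the filter on low counts. Livers came from male mice aged 16 weeks on a C57Bl/6J background, fed chow, either wild-type or heterozygous for the *Pik3r1* Y657* knock-in allele (*Pik3r1* WT/Y657*), which truncates the regulatory subunits of phosphoinositide 3-kinase and models human SHORT syndrome. The allele was made by homologous recombination and is carried in all cells, not in liver alone. Mice are named here by the genotype tag (WT, or MT for the mutant) and number of their labels. Mice of each genotype were taken fed, after a 16 h fast, or after a 16 h fast and 6 h of refeeding, with 6 mice in each of the 6 groups. The comparisons ask how these genes respond to fasting and refeeding and whether the mutant allele alters their level or their response.

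Bile acids are made from cholesterol in hepatocytes. In the classic pathway CYP7A1 takes the first and rate-limiting step and CYP8B1 directs the product towards cholic acid. In the alternative pathway CYP27A1 oxidises the cholesterol side chain and CYP7B1 hydroxylates the resulting oxysterol. BAAT then joins bile acids to taurine or glycine, and the canalicular pump BSEP, encoded by *Abcb11*, exports them into bile. Bile acids that return to the liver activate the nuclear receptor FXR (*Nr1h4*), which induces the corepressor SHP (*Nr0b2*) and *Abcb11*. FXR in the ileum induces the hormone FGF15, which signals in hepatocytes through FGFR4 with its coreceptor beta-klotho (*Klb*) and represses *Cyp7a1*. Insulin, feeding and the circadian clock are all known to influence *Cyp7a1* and *Cyp8b1*.

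Depth ran from 8839488 to 19542775 counts per liver. Levels are given as CPM, counts relative to the library's total after TMM scaling, and a gene was called where edgeR's quasi-likelihood test gave a Benjamini-Hochberg adjusted p under 0.05 over all 13945 genes. Total *Pik3r1* counts do not separate the alleles, and group means were 93.3 to 148 CPM. Summed hepatocyte markers (8 genes) had group medians of 69000 to 88200 CPM, against at most 83.1 CPM for 8 cholangiocyte markers. Summed Kupffer cell markers (8 genes) ran from 178 to 611 CPM in fed *Pik3r1* WT/Y657* livers and from 198 to 275 CPM in fed wild-type livers. In whole liver, fewer cells of a type and less RNA per cell cannot be told apart. *Fgf15*, the ileal signal, had no count in any of the 36 libraries, which allows up to 0.339 CPM in the shallowest library and covers counting error only.

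Promoter sequence is shown for 3 members whose control is best known, the FXR targets *Abcb11* and *Nr0b2* and the SHP-repressed *Cyp8b1*. Each window is the 250 bases before the annotated start in RefSeq's GRCm38.p6 promoter table, which held 7 of the 10 members and not *Cyp7a1*, *Cyp7b1* or *Baat*. Capitals mark matches on either strand to a relaxed form of the FXR inverted repeat (GGNCA, then 1 base, then its reverse complement TGNCC), CAAGG (the core bound by NR5A2, the receptor through which SHP represses), the E-box CACGTG and TATAAA. The windows are chr2:69342617-69342866 on the minus strand for *Abcb11*, chr4:133553126-133553375 on the plus strand for *Nr0b2* and chr9:121916306-121916555 on the minus strand for *Cyp8b1*.
Abcb11: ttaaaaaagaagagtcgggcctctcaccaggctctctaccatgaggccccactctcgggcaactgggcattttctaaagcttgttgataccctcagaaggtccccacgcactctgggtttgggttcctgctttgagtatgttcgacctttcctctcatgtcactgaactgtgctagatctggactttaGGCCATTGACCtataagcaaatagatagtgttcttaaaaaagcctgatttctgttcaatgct
Nr0b2: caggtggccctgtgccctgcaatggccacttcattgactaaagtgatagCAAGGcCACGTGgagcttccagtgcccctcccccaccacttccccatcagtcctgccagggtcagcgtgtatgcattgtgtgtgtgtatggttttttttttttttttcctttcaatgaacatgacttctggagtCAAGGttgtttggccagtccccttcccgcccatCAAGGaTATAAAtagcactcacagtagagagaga
Cyp8b1: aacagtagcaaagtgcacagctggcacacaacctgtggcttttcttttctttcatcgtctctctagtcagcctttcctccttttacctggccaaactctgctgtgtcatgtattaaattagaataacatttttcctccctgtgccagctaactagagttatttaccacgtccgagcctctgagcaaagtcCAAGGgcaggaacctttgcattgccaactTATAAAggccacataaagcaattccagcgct
The *Abcb11* window held 1 match to the relaxed inverted repeat, starting 62 bases before the start site, and 0.575% of all 32851 windows hold a match. None of the 7 members with a window matched the strict form (GGTCA, 1 base, TGACC) within its 250 bases, and 0.0335% of windows hold it. *Nr0b2* held 3 CAAGG cores, the nearest 34 bases before the start, with a CACGTG 195 bases and a TATAAA 28 bases before it. *Cyp8b1* held 1 CAAGG core 60 bases and a TATAAA 31 bases before its start. CAAGG is common and stands in 46% of windows, CACGTG in 6.02% and TATAAA in 12.4%. These are letter matches and not measured binding sites.

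Corrected for exonic length, the order of levels in fed wild-type liver ran from *Cyp7b1* (269 ± 50.4 CPM per kb, SD, n = 6) through *Abcb11* (214 ± 26.3 CPM per kb) and *Cyp27a1* (199 ± 11.4 CPM per kb) to *Baat* (153 ± 6.13 CPM per kb) and *Cyp8b1* (103 ± 32.6 CPM per kb). The receptor *Nr1h4* stood at 46.3 ± 4.46 CPM per kb. *Cyp7a1* (31.6 ± 9.93 CPM per kb) and *Nr0b2* (26.6 ± 9.07 CPM per kb) followed. *Fgfr4* (10 ± 0.844 CPM per kb) and *Klb* (8.73 ± 1.34 CPM per kb) were lowest. The mice overlapped between *Cyp7b1* and *Abcb11*, *Abcb11* and *Cyp27a1*, *Nr1h4* and *Cyp7a1*, *Cyp7a1* and *Nr0b2*, and *Fgfr4* and *Klb*, so those neighbours were not separated. Over all 36 livers *Cyp8b1* spanned an 11.6-fold range, *Cyp7b1* 10.1-fold and *Cyp7a1* 9.8-fold, whereas *Baat* spanned 1.4-fold and *Fgfr4* 1.65-fold.

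On fasting of wild-type mice 4 of the 10 genes were called, with *Cyp8b1* and *Klb* higher and *Cyp7b1* and *Abcb11* lower, beside 32% of all genes tested. All fed mice carried numbers between WT_847 and MT_869, where no fasted or refed mouse stood, so number series and feeding state cannot be told apart in comparisons with fed mice. *Cyp8b1* (chr9:121914356-121916305, minus strand, a single-exon gene) had a lowest, median and highest value of 116, 217 and 276 CPM fed and 621, 715 and 932 CPM fasted. The wild-type groups did not overlap, and the log2 fold change was 1.90 (SE 0.29, adjusted p = 6.91e-06), a 3.73-fold rise. *Cyp7b1* (chr3:18071950-18243338, minus strand) fell by 2.01 on the log2 scale (SE 0.34, adjusted p = 2.15e-05), from 399, 601 and 726 CPM fed to 71.9, 145 and 242 CPM fasted. Again no fasted liver reached the lowest fed liver. *Abcb11* (chr2:69238282-69342616, minus strand) fell by 0.98 (SE 0.10, adjusted p = 2.89e-10), from 935, 1160 and 1260 CPM to 481, 562 and 636 CPM. *Klb* (chr5:65348386-65384003, plus strand) rose by 0.71 (SE 0.14, adjusted p = 9.96e-05), from 31.7, 39.3 and 48.3 CPM to 59.9, 64.4 and 70.9 CPM, and its groups also did not overlap.

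The 4 genes called in fasted *Pik3r1* WT/Y657* liver were those called in wild-type, each in the same direction, beside 32.9% of all genes. *Abcb11* fell by 0.99 (SE 0.10, adjusted p = 2.38e-10), from between 962 and 1050 CPM fed to between 395 and 584 CPM fasted, without overlap. *Cyp7b1* fell by 1.36 (SE 0.33, adjusted p = 0.0018) and *Cyp8b1* rose by 1.0 (SE 0.29, adjusted p = 0.00731), and in both genes fed and fasted mice overlapped. *Cyp8b1* had 137, 295 and 488 CPM fed and 453, 592 and 790 CPM fasted. With fed mice MT_866, MT_868 and MT_869 left out, the *Cyp8b1* change was 0.62 with an adjusted p of 0.166, and the *Cyp7b1* change was -1.93 with an adjusted p of 1.17e-05. *Klb* rose by 0.35 (adjusted p = 0.0433), and the adjusted p ran up to 0.178 when single mice were left out, with the call lost in 8 of 12 cases. The remaining synthesis gene of the classic pathway, *Cyp7a1*, had log2 changes of -0.52 in wild-type (adjusted p = 0.266) and -0.56 in *Pik3r1* WT/Y657* liver (adjusted p = 0.229).

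**Figure D1:**
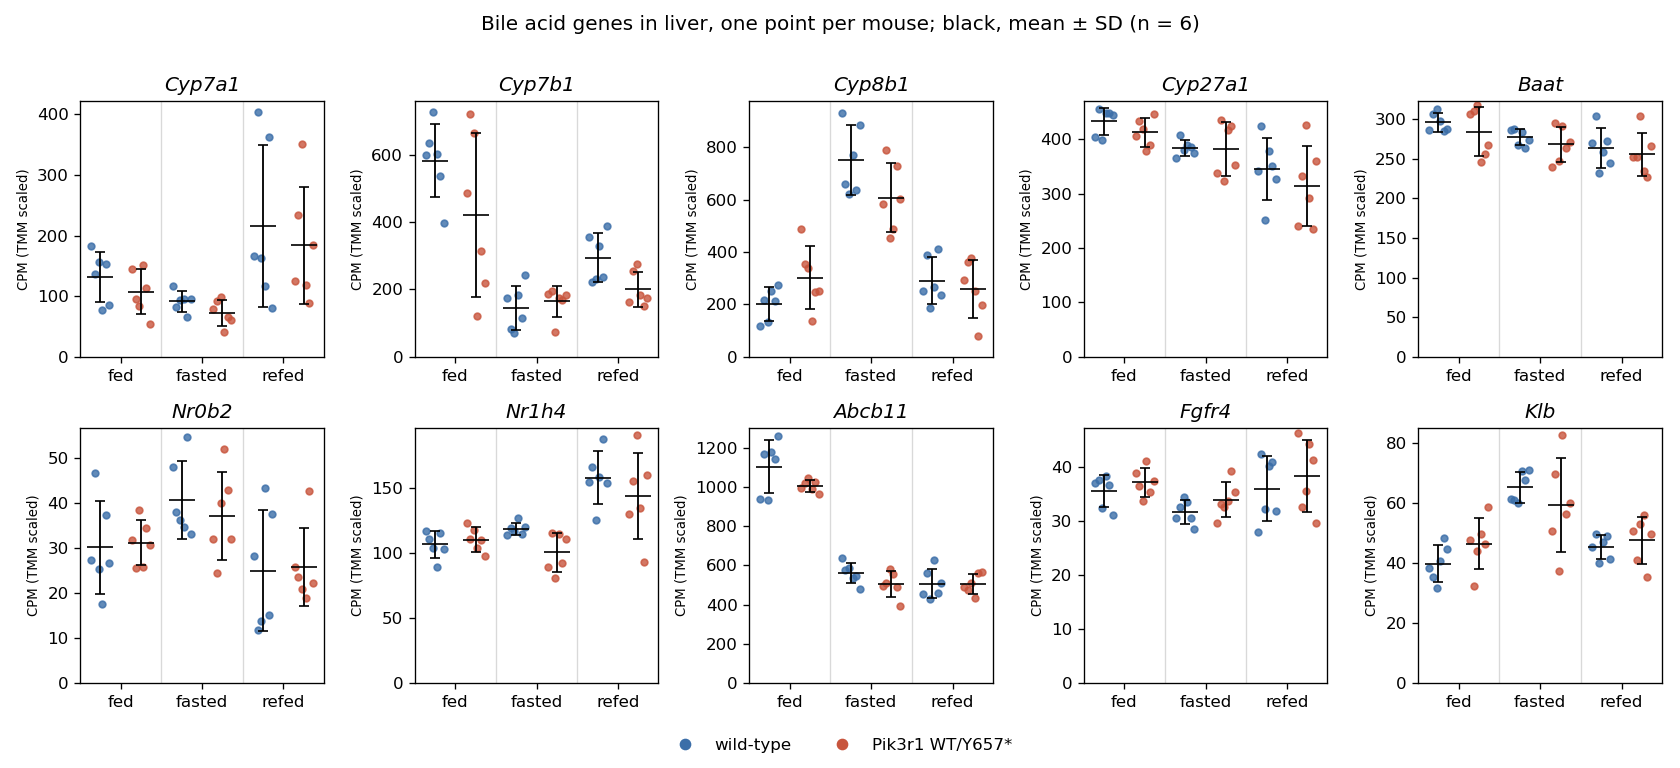
Levels of the 10 genes in CPM (vertical axis, from 0) by feeding state, with 1 point per mouse, wild-type in blue and *Pik3r1* WT/Y657* in red, and black bars for the mean ± SD of 6 mice. *Cyp8b1* stood highest in fasted livers, *Cyp7b1* and *Abcb11* in fed livers, and 3 fed *Pik3r1* WT/Y657* livers had *Cyp7b1* between 120 and 313 CPM, under every fed wild-type liver.

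Between fasted wild-type livers and those taken after 6 h of refeeding, 6 of the 10 genes were called, 3 higher and 3 lower after refeeding, beside 30.2% of all genes. The refeeding and fasting comparisons share the fasted mice, so a chance deviation of that group enters both. *Cyp7a1* (chr4:6265612-6275633, minus strand) had 65, 94.9 and 117 CPM fasted and 80.6, 165 and 403 CPM refed. It rose by 1.23 (SE 0.35, adjusted p = 0.0074), and the refed livers spread widely and overlapped the fasted ones. *Cyp7b1* rose by 1.02 (SE 0.33, adjusted p = 0.017) to 222, 283 and 390 CPM, still under every fed wild-type liver. *Nr1h4*, encoding FXR (chr10:89454234-89533585, minus strand), rose by 0.41 (SE 0.11, adjusted p = 0.00349), from 114, 118 and 127 CPM to 125, 157 and 188 CPM. Among the genes that fell, *Cyp8b1* dropped by 1.37 (SE 0.29, adjusted p = 0.000494) to 188, 260 and 410 CPM, below every fasted liver. *Klb* fell by 0.52 (SE 0.14, adjusted p = 0.0031) and likewise did not overlap its fasted values. *Nr0b2*, encoding SHP (chr4:133553376-133556536, plus strand), fell by 0.69 (SE 0.27, adjusted p = 0.0486), from 33, 37 and 54.5 CPM to 11.7, 21.7 and 43.2 CPM. That call was lost in 8 of 12 fits without a single mouse, at adjusted p values up to 0.125.

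In *Pik3r1* WT/Y657* liver 4 of the 10 genes were called on refeeding, beside 31.3% of all genes. *Cyp7a1* rose by 1.34 (SE 0.35, adjusted p = 0.00385), from 41.1, 72.2 and 98 CPM to 89, 155 and 350 CPM. *Nr1h4* rose by 0.52 (SE 0.11, adjusted p = 0.000333), and *Cyp8b1* fell by 1.22 (SE 0.29, adjusted p = 0.00148) to 80.4, 272 and 377 CPM, below every fasted liver. *Cyp27a1* (chr1:74713574-74737890, plus strand) fell by 0.28 (adjusted p = 0.0475), a call lost in 7 of 12 fits without a single mouse, with the low and high mouse numbers as a covariate (adjusted p = 0.0502) and by edgeR's likelihood ratio test (adjusted p = 0.0546). The change in *Cyp7b1* was 0.28 (SE 0.32, adjusted p = 0.542), with 74.9, 180 and 196 CPM fasted and 152, 178 and 277 CPM refed. *Nr0b2* had -0.53 (adjusted p = 0.133) and passed without MT_898 (-0.74, adjusted p = 0.0381). *Klb* had -0.32 (adjusted p = 0.0719) and passed without MT_827 (-0.42, adjusted p = 0.00891) or MT_897 (-0.37, adjusted p = 0.0483). Mice in the fasted and refed groups carried low numbers (up to WT_828) or high ones (from WT_896), 3 of each in every group. Within the low and the high numbers the refeeding difference in *Cyp7a1* was 1.20 and 0.84 in wild-type and 1.28 and 1.19 in *Pik3r1* WT/Y657* liver, and that in *Cyp8b1* was -1.45 and -1.35 in wild-type and -0.79 and -1.91 in *Pik3r1* WT/Y657* liver.

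**Figure D2:**
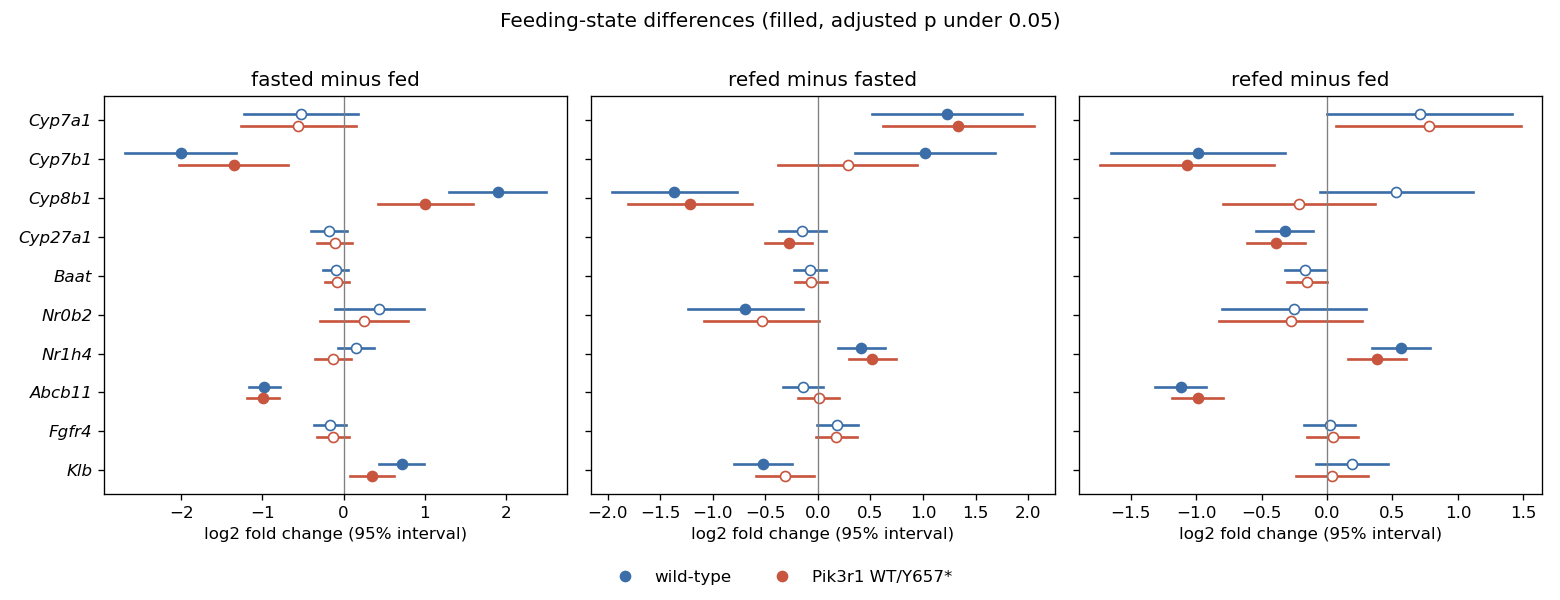
Log2 fold changes of the 10 genes (horizontal axis, with 95% intervals) for fasted minus fed, refed minus fasted and refed minus fed, wild-type in blue and *Pik3r1* WT/Y657* in red, filled where the adjusted p was under 0.05. *Cyp8b1* lay right of 0 on fasting and left of 0 on refeeding in both genotypes, and *Abcb11* lay near -1 on fasting and near 0 on refeeding.

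Some members differed between refed and fed livers, whereas *Cyp7a1*, *Cyp8b1*, *Nr0b2*, *Klb*, *Baat* and *Fgfr4* were not called in either genotype. *Cyp7a1* was higher by value after refeeding, by 0.71 in wild-type (95% interval 0.003 to 1.413, adjusted p = 0.129). In *Pik3r1* WT/Y657* liver its difference was 0.78 (95% interval 0.071 to 1.482, adjusted p = 0.0976). Against fed mice, 4 genes were called in each genotype, *Nr1h4* higher and *Cyp7b1*, *Cyp27a1* and *Abcb11* lower, beside 27.5% of all genes in wild-type and 26.1% in *Pik3r1* WT/Y657* liver. *Abcb11* stayed down after refeeding, at 430, 485 and 626 CPM in wild-type and 436, 501 and 569 CPM in *Pik3r1* WT/Y657* liver. Its refed-against-fed change was -1.12 (SE 0.10, adjusted p = 1.38e-10) and -0.99 (SE 0.10, adjusted p = 1.05e-09), while the change from fasted to refed was -0.14 (adjusted p = 0.265) and 0.00 (95% interval -0.188 to 0.198, adjusted p = 0.976). *Nr1h4* was higher by 0.57 (adjusted p = 0.000159) in wild-type, without overlap, and by 0.38 (adjusted p = 0.00839) in *Pik3r1* WT/Y657* liver, and the latter had an adjusted p of 0.118 without fed mice MT_866, MT_868 and MT_869. *Cyp27a1* differed by -0.33 and -0.39 (adjusted p = 0.0236 and 0.00705), and the wild-type call was lost without mouse WT_828 (adjusted p = 0.0826) and under scaling by library size alone (adjusted p = 0.071). *Cyp7b1* was at -0.99 (adjusted p = 0.0228) and -1.07 (adjusted p = 0.0149). The wild-type call of *Cyp7b1* was lost without mouse WT_816 (adjusted p = 0.0522) or WT_900 (adjusted p = 0.0502), and the mutant one without mouse MT_858 (adjusted p = 0.0589).

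The ratio of *Cyp8b1* to *Cyp7a1* counts, which is not corrected for length and is read here only between groups, had wild-type medians of 1.5 before the fast, 8.04 at its end and 1.34 after refeeding. In *Pik3r1* WT/Y657* liver the medians were 3.54, 9.28 and 1.32. The fed genotypes overlapped, with ratios from 0.638 to 3.22 in wild-type and from 0.901 to 4.62 in *Pik3r1* WT/Y657* liver. In the fasted wild-type mice the ratio stayed between 6.57 and 9.76, the tightest of the 6 groups on the log2 scale (SD 0.20).

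The conjugating enzyme *Baat* (chr4:49489422-49506557, minus strand) and the FGF15 receptor *Fgfr4* (chr13:55152640-55168759, plus strand) were called in none of the 12 comparisons. Group medians of *Baat* ran from 252 to 293 CPM and those of *Fgfr4* from 31.7 to 38.5 CPM. For *Baat* the unadjusted p was 0.032 for refed against fed in wild-type, at a log2 difference of -0.17, and *Baat* passed the threshold in that comparison without mouse WT_816 (adjusted p = 0.0395). In *Pik3r1* WT/Y657* liver the same difference was -0.15 (adjusted p = 0.139), and it passed without MT_817 (-0.21, adjusted p = 0.0449) and without fed mice MT_866, MT_868 and MT_869 (-0.28, adjusted p = 0.014). *Fgfr4* passed in refeeding of *Pik3r1* WT/Y657* liver when libraries were scaled by size alone (0.28, adjusted p = 0.038), a scaling that moved the median of all genes by 0.10 there.

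The *Pik3r1* genotype left the 10 genes without a called difference in any feeding state. By edgeR's quasi-likelihood test the count was 0 of 10 fed, beside 2.37% of all genes, 0 of 10 fasted, beside 13.1%, and 0 of 10 refed, beside 0.0287%. The likelihood ratio test and DESeq2 also called 0 of 10 in each state. At an unadjusted p under 0.05 in the quasi-likelihood test the counts were 1, 1 and 0. The fed gene was *Cyp8b1*, at 303 ± 120 CPM in *Pik3r1* WT/Y657* and 201 ± 63.6 CPM in wild-type liver (SD, n = 6), a log2 difference of 0.59 (SE 0.29, adjusted p = 0.284). Of the 6 mutant livers, 3 stood above every wild-type liver. The fasted gene was *Nr1h4*, at 100 ± 14.8 against 118 ± 4.57 CPM, a log2 difference of -0.24 (SE 0.11, adjusted p = 0.151), with 4 of 6 mutant livers below every wild-type liver. For *Cyp7a1* the log2 differences were -0.30 fed (95% interval -1.002 to 0.41), -0.33 fasted (-1.04 to 0.38) and -0.23 refed (-0.93 to 0.47). For *Abcb11* the intervals were narrower, at -0.33 to 0.06 fed, -0.34 to 0.04 fasted and -0.19 to 0.19 refed. *Nr0b2* differed by 0.05 fed, -0.13 fasted and 0.03 refed, each within a 95% interval of at most -0.67 to 0.60.

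**Figure D3:**
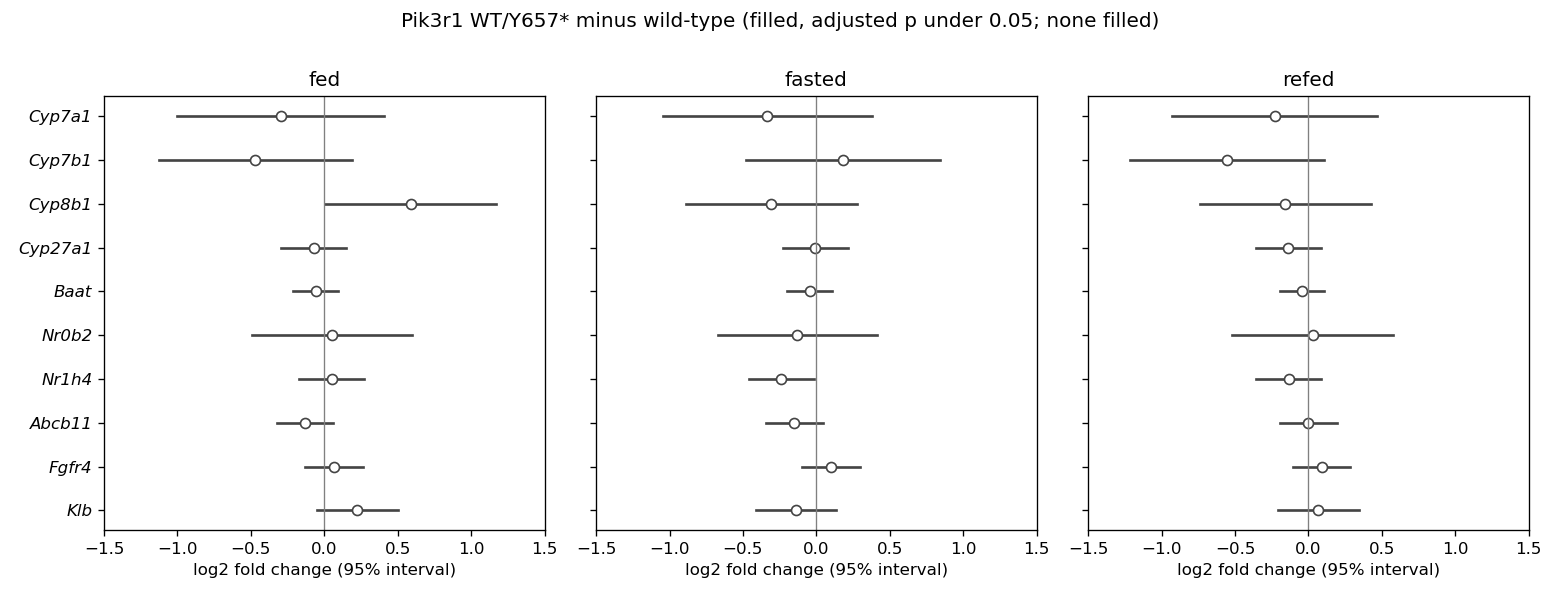
Log2 differences of the 10 genes between *Pik3r1* WT/Y657* and wild-type liver (horizontal axis, with 95% intervals) in fed, fasted and refed mice. No point is filled, since no adjusted p was under 0.05, and the intervals of *Cyp7a1*, *Cyp7b1* and *Cyp8b1* were the widest.

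*Cyp7b1* in fed mice depended on which mice were counted. The genotype difference was -0.47 (SE 0.32, adjusted p = 0.47). Fed *Pik3r1* WT/Y657* mice MT_857, MT_858 and MT_859 had 485.4, 722.3 and 665.5 CPM, within the wild-type range, whereas mice MT_866, MT_868 and MT_869 had 120.1, 313.0 and 220.0 CPM. No wild-type mouse was numbered beside these 3, and no mutant beside WT_847 to WT_850. Their numbers are the only label that sets these mice apart, and the labels do not call them a batch. Between WT_856 and WT_860, where 2 wild-type and 3 mutant mice stood together, the mean log2 difference was 0.41. Summed Kupffer cell markers were 524, 611 and 403 CPM in MT_866, MT_868 and MT_869, against 178, 194 and 419 CPM in MT_857, MT_858 and MT_859. The part of these markers in the *Cyp7b1* values was not tested. Without MT_866, MT_868 and MT_869 the genotype difference in *Cyp7b1* was 0.10 (adjusted p = 0.98), and that in *Cyp8b1* 0.97 (adjusted p = 0.429). In fasted mice the *Cyp7b1* difference was 0.18 (SE 0.32, adjusted p = 0.772). In refed mice it was -0.56 (SE 0.32, adjusted p = 0.609), with 4 mutant livers below every wild-type liver.

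No member was called for a genotype difference in its response, at 0 of 10 for fasting beside 4.35% of all genes, 0 of 10 for refeeding beside 2.06% and 0 of 10 for refed against fed beside 0.179%. By edgeR, 1 member had an unadjusted p under 0.05 in these tests. It was *Cyp8b1*, whose fasting rise was smaller in *Pik3r1* WT/Y657* liver by value (log2 difference of the responses -0.89, SE 0.40, unadjusted p = 0.0343, adjusted p = 0.215). The differences of the fasting responses for *Klb* (-0.36, adjusted p = 0.3) and *Nr1h4* (-0.29, adjusted p = 0.309) also did not pass. Nor did the difference of the refeeding responses for *Cyp7b1* (-0.74, SE 0.46, adjusted p = 0.469). For *Nr1h4* the fasting values were 0.15 in wild-type and -0.14 in the mutant, neither of them called.

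SHP is known to repress *Cyp7a1* and *Cyp8b1*, and 4 gene pairs of the feedback loop were compared across the 36 mice after centring each gene on its group mean. *Nr0b2* and *Cyp7a1* had a Pearson r of -0.48 (permutation p = 0.0246, adjusted p = 0.0983 over 4 pairs) and a Spearman rho of -0.39 (permutation p = 0.0475, adjusted p = 0.163). The relation did not pass after adjustment. The sign was negative in 5 of 6 groups, from -0.83 in refed wild-type to 0.53 in fed wild-type mice. The refed wild-type mice with the most *Cyp7a1*, WT_816 (402.9 CPM) and WT_900 (362.3 CPM), had 11.73 and 15.09 CPM of *Nr0b2*. WT_896 and WT_901, with 117.0 and 80.63 CPM of *Cyp7a1*, had 43.19 and 37.58 CPM of *Nr0b2*. The remaining mice of that group, WT_828 and WT_815, had similar *Cyp7a1* (162.8 and 166.4 CPM) at 13.7 and 28.22 CPM of *Nr0b2*. Without WT_896 and MT_898, the pair farthest from the median of *Nr0b2*, r was -0.37 (permutation p adjusted to 0.446).

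**Figure D4:**
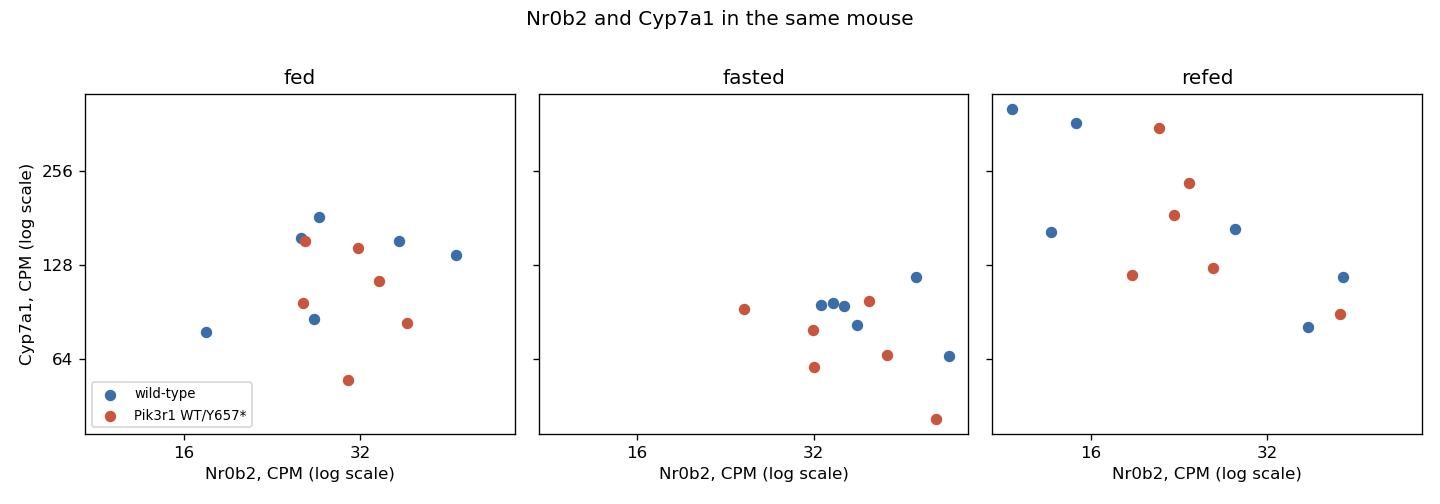
*Nr0b2* (horizontal) against *Cyp7a1* (vertical), both in CPM on log scales, with 1 point per mouse in fed, fasted and refed livers, wild-type in blue and *Pik3r1* WT/Y657* in red. Refed mice ran from the upper left to the lower right, with *Cyp7a1* at 402.9 CPM where *Nr0b2* was 11.73 CPM.

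The other pairs had r of -0.29 for *Nr0b2* with *Cyp8b1*, 0.31 for *Cyp7a1* with *Cyp8b1* and 0.36 for *Nr0b2* with *Abcb11* (permutation p adjusted to 0.123 in each). *Nr0b2* and *Abcb11*, both FXR targets, were positively related in all 6 groups, from 0.12 to 0.58. *Cyp7a1* and *Cyp8b1* were related at -0.81 in fed wild-type and 0.78 in refed wild-type mice, each over 6 mice. With WT_816 and WT_901 left out of that pair, r was 0.26, and no pair passed without its 2 farthest mice.

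Outside the members, several synthesis enzymes differed by genotype in fasted liver. Of 13 other bile acid synthesis enzymes tested, 7 were lower and 1 higher in fasted *Pik3r1* WT/Y657* liver, beside 6.63% of all genes lower and 6.43% higher. Their median log2 difference was -0.30, against 0.00 over all genes. *Akr1c6* differed by -0.64 (SE 0.14, adjusted p = 0.00207), at 442 ± 139 against 686 ± 100 CPM. *Slc27a5*, the ligase that activates bile acids ahead of conjugation, differed by -0.32 (SE 0.08, adjusted p = 0.00539) and *Amacr*, the racemase of the side chain, by -0.36 (SE 0.09, adjusted p = 0.00583). *Hsd3b7*, *Akr1d1*, *Slc27a2* and the little expressed *Cyp46a1* were the others that were lower, and *Cyp39a1* was higher by 0.82 (adjusted p = 0.0346). The number called was 8 in all, 6 in a fit of the fasted groups alone, and 4 without MT_806 or MT_827 and 5 without WT_918 or WT_919. In fed and in refed liver none of the 13 was called, beside 2.37% and 0.0287% of all genes. For a genotype difference in the fasting response 1 of the 13 was called, beside 4.35% of all genes. It was *Hsd3b7*, which acts just after the initial hydroxylation (-0.43, SE 0.12, adjusted p = 0.0267).

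**Figure D5:**
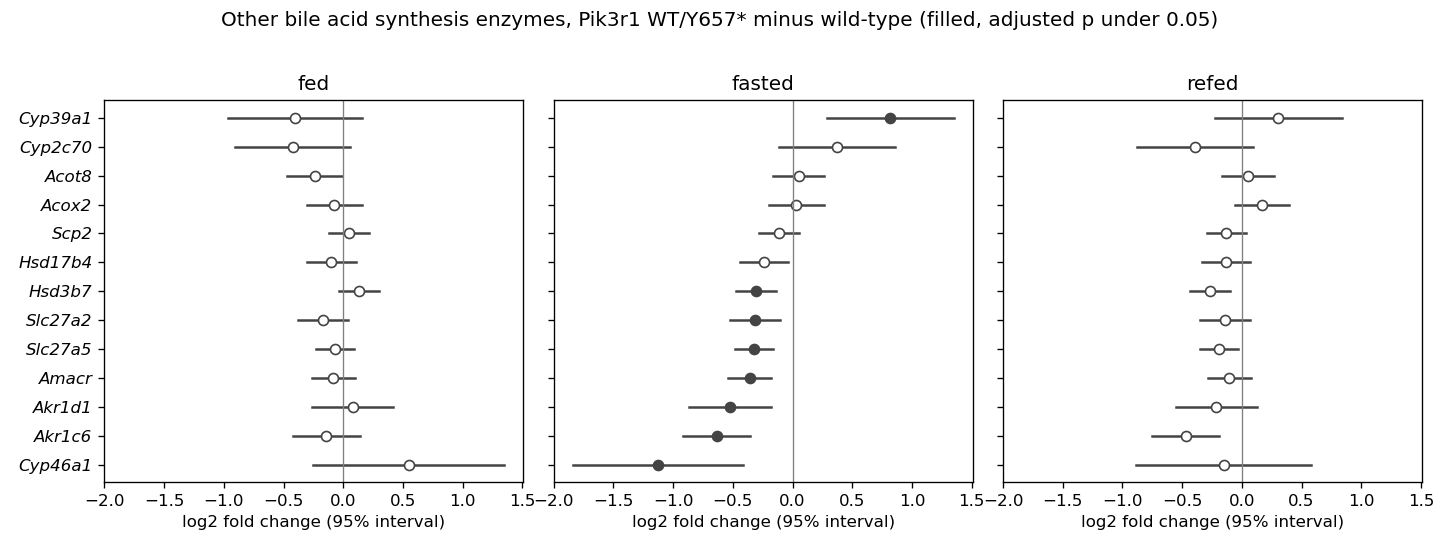
Log2 differences between *Pik3r1* WT/Y657* and wild-type liver (horizontal axis, with 95% intervals) for the 13 other bile acid synthesis enzymes tested, filled where the adjusted p was under 0.05. In fasted mice 7 filled points lay left of 0 and 1, *Cyp39a1*, lay right of 0. No point was filled in fed or refed mice, where 2.37% and 0.0287% of all genes were called.

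On fasting of wild-type mice 6 of these 13 enzymes rose and 2 fell, beside 32% of all genes called. *Cyp2c70*, which makes the muricholic acids of mice, fell by 3.40 (SE 0.26, adjusted p = 7.69e-12), from 830 ± 178 to 78.8 ± 37.8 CPM. *Slc27a2* rose by 1.23 (adjusted p = 1.02e-11) and *Acot8* by 0.99 (adjusted p = 4.47e-09). On refeeding 2 rose and 5 fell, beside 30.2% of all genes. *Cyp2c70* rose by 1.30 (adjusted p = 0.000106), and *Slc27a5* (value -0.57, adjusted p = 5.34e-07) and *Slc27a2* (value -0.63, adjusted p = 1.14e-05) fell.

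Among 14 bile acid and bile lipid transporters tested, 4 rose and 3 fell on fasting of wild-type mice, beside 32% of all genes called. *Abcb4*, the canalicular phospholipid flippase and like *Abcb11* an FXR target, rose by 1.32 (SE 0.09, adjusted p = 6.12e-14), opposite in sign to *Abcb11*. *Atp8b1*, an aminophospholipid flippase, fell by 1.05 (adjusted p = 2.05e-12), and the basolateral exporter *Abcc3* rose by 1.08 (adjusted p = 1.75e-05). On refeeding 4 of the 14 were called, beside 30.2% of all genes. Of these 2 rose, among them *Atp8b1* by 0.46 (adjusted p = 4.32e-05), and 2 fell, *Abcb4* at -0.71 (adjusted p = 1.11e-07) and *Abcc3* at -0.66 (adjusted p = 0.00496). By genotype in fasted liver 2 of 14 were lower, beside 6.63% of all genes, *Abcc3* (-0.78, adjusted p = 0.00396) and *Slco2b1* (-0.28, adjusted p = 0.0423), and the sodium-dependent importer *Slc10a1* had -0.41 (adjusted p = 0.0722).

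Of 20 regulators tested, 5 rose and 1 fell on fasting of wild-type mice, and 1 rose and 5 fell on refeeding, shares close to the 32% and 30.2% of all genes called. On fasting, *Nr1i3*, encoding CAR, rose by 1.86 (adjusted p = 6.61e-06), *Nfil3* by 0.81 (adjusted p = 0.0025) and *Ppara* by 0.70 (adjusted p = 7.32e-07). On refeeding, *Nr1h3*, encoding LXR alpha, rose (0.48, adjusted p = 5.11e-07), and the genes that fell included *Ppara* (-0.48, adjusted p = 0.000308) and *Hnf4a* (-0.39, adjusted p = 0.000347). In fasted liver 4 were lower in *Pik3r1* WT/Y657* mice, among them *Ppara* (-0.55, adjusted p = 0.000328), *Cebpa* (-0.51, adjusted p = 0.00217) and *Nr5a2* (-0.29, adjusted p = 0.0171), beside 6.63% of all genes. NR5A2 is the receptor whose core letters are marked in the promoters above. Of 13 FXR targets outside the members, 5 rose and 1 fell on fasting of wild-type mice, beside 32% of all genes, with *Insig2* up by 1.25 (adjusted p = 2.25e-07) and *Vldlr* by 2.80 (adjusted p = 0.000194). On refeeding 6 fell, beside 30.2% of all genes called, with *Insig2* at -2.06 (adjusted p = 2.31e-11) and *Fetub* at -0.38 (adjusted p = 0.00146). By genotype in fasted liver 1 of 13 was lower, a share near the 6.63% of all genes, *Fetub* (-0.29, adjusted p = 0.0258), and *Apoc2* (adjusted p = 0.101) and *Lpin1* (adjusted p = 0.127) did not pass. *Abcb4*, *Abcc2*, *Slc51a* and *Slc51b* are in the transporter list and in the FXR target list. *Dbp*, *Nr1d1* and *Nfil3* are among the regulators and among the clock genes below. Counts of lists that share genes are not independent and can hold the same gene. By genotype in fed liver 1 of the 14 transporters and 1 of the 13 FXR targets were higher. Of the 20 regulators 1 was lower there, beside 2.37% of all genes called.

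Clock genes moved over the same groups, and collection times were not in the labels. Of 19 clock genes, 10 were called on refeeding in wild-type and 13 in *Pik3r1* WT/Y657* liver, beside 30.2% and 31.3% of all genes. *Arntl*, encoding BMAL1, fell by 2.21 (adjusted p = 0.000104) and by 2.06 (adjusted p = 0.000143), and *Per2* rose by 1.85 (adjusted p = 1.61e-05) and 1.91 (adjusted p = 9.1e-06). *Dbp*, a clock output factor known to act on *Cyp7a1*, rose by 2.34 in the mutant (adjusted p = 0.000608) and had 1.22 in wild-type (adjusted p = 0.0514), and *Nr1d1* did not pass in either genotype. By genotype, 3 of the 19 were called in fasted liver, all lower in *Pik3r1* WT/Y657* mice, beside 6.63% of all genes lower. In fed and in refed liver 0 of the 19 were called, beside 2.37% and 0.0287% of all genes. *Arntl* had 1.22 in fed liver (adjusted p = 0.078) and *Dbp* -1.17 in fasted liver (adjusted p = 0.127), neither of them called. By the paper's methods, tissues were taken before the overnight fast, at its end, or once the mice had been refed. Time of day and feeding state therefore cannot be told apart in any fasting, refeeding or refed-against-fed change of the members. The part of collection time in the changes of *Cyp7a1*, *Cyp8b1* and *Nr0b2* was not tested.

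Outside the members, the gene whose log2 CPM followed *Cyp7a1* most closely over the 36 mice was *Tmpo* (Pearson r = 0.83), ahead of *Eif3g* (0.74) and *Gm12744* (0.74). For *Cyp8b1* they were *Gm4952* (0.89), *Acsl1* (0.88) and *Fitm2* (0.86), and for *Nr0b2* they were *Xpc* (0.72), *Calcoco1* (0.71) and *Kctd21* (0.69). These were the highest of 12591 genes with a mean of at least 1 CPM, and all points share the feeding groups and the scaling.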

How the data were processed

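Liver RNA from 36 mice (6 per group) was prepared as stranded total RNA libraries and sequenced as 50 base single reads on an Illumina HiSeq instrument, per the labels. The authors' processing notes name Cuffdiff, featureCounts, SAMtools and edgeR without versions and the mm9 build. The authors deposited expected counts per gene, unnormalized and 3.64% not whole among nonzero values, which were rounded here. Locations in the table overlapped GRCm38 genes (GENCODE M21) for 99.7% of 36341 genes matched by identifier, so GRCm38 is used here. Fitted counts in a second table of the authors were not used.

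Genes passing edgeR's filterByExpr (13945) were fitted together for all 6 groups with TMM scaling and the robust quasi-likelihood test (edgeR 4.0.16, R 4.3.3; common biological coefficient of variation 0.181). Tests were two-sided, with Benjamini-Hochberg adjustment over all genes and a threshold of 0.05, for 12 comparisons. Correlations used log2 CPM (prior count 2) and 100000 permutations of mice within groups. DESeq2 1.42.0, the likelihood ratio test, other scalings, no filter, separate fits, mouse numbers and leaving out each mouse were alternatives. The steps were tested on simulated data. Libraries of a group differed by more than sampling noise in all 90 pairs. Mice within a group are separate animals by number.

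Named genes were every member, and, from each of 4 pathway lists, the 3 with the smallest p in fasting wild-type, refeeding wild-type and genotype fasted, with 4 clock genes and the 3 genes most like *Cyp7a1*, *Cyp8b1* and *Nr0b2*. Others named (*Fgf15*, *Hsd3b7*, *Akr1d1*, *Cyp46a1*, *Cyp39a1*, *Slc27a2*) were chosen after their values were seen. *Abcc2* is named only as a gene shared by lists. Members and lists were chosen with earlier results of these data known. *Slc51a*, *Slc51b*, *Ciart* and *Adgre1* were matched by gene identifier under older symbols. The values of the fourth regulator lower in fasted *Pik3r1* WT/Y657* liver are not reported here.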

Additional observations from a re-analysis of the deposited data

Results flagged for a closer look

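Of 60 sets of 6 mice (10 genes in 6 groups), 1 held a mouse far from the other 5, where chance flags about 1 set in 20. *Cyp7b1* in fasted *Pik3r1* WT/Y657* liver was 74.94 CPM in mouse MT_827, while the other 5 mice had 169.2 to 195.8 CPM, and the gap to the nearest mouse took up 0.848 of the group's log2 range. Without mouse MT_827 the fasting change of *Cyp7b1* in *Pik3r1* WT/Y657* mice was -1.21 on the log2 scale (adjusted p = 0.00574 by edgeR).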

How the results depend on the processing

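No paired analysis was possible because no 2 groups shared a mouse number. The count of members called stayed within 1.5 times its main value in every comparison for which an alternative was run, except in the fit of only the groups compared, where refed against fed in *Pik3r1* WT/Y657* mice fell from 4 genes to 2 and lost *Cyp7b1* (adjusted p = 0.0774) and *Nr1h4* (adjusted p = 0.0573). The count of other synthesis enzymes called by genotype in fasted liver ran from 4 to 8 with single mice left out. No correlation passed under another prior count, under library size alone or without its 2 farthest mice. Calls of *Klb* (fasting, *Pik3r1* WT/Y657*), *Nr0b2* (refeeding, wild-type) and *Cyp27a1* (refeeding, *Pik3r1* WT/Y657*) were lost under library size alone (adjusted p = 0.0952, 0.0795 and 0.204), and also without the filter on low counts and in the fit of only the groups compared. The call of *Cyp27a1* (refed against fed, wild-type) was lost under library size alone (adjusted p = 0.071). *Cyp27a1* (fasting, wild-type) passed in the fit of only the groups compared (-0.17, adjusted p = 0.0352). The cause was not tested. The number series as a covariate was run for the 5 comparisons among fasted and refed mice and changed, among the members, no other call than that of *Cyp27a1* in refeeding of *Pik3r1* WT/Y657* mice.

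Signs turned only in differences that were not called. Library size alone gave 0.025 for *Cyp27a1* and 0.039 for *Baat* (genotype, fed), 0.026 for *Cyp27a1* (genotype, fasted), 0.025 for *Baat* and 0.066 for *Abcb11* (genotype, refed) and 0.032 for *Baat* (refeeding, mutant), and moved the median of all genes by up to 0.10. DESeq2 and its size factors gave -0.0031 for *Abcb11* (refeeding, mutant), and the fasted groups alone gave 0.014 for *Cyp27a1* (genotype). For genotype in fed mice, 2 alternatives were added after seeing the data. Blocks of mouse numbers gave 0.42 for *Cyp7b1*, 0.12 for *Baat* and -0.17 for *Klb*, and leaving out MT_866, MT_868 and MT_869 gave 0.10 for *Cyp7b1* and 0.074 for *Baat*.

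Leaving out single mice gave, by genotype in refed mice, -0.045 to 0.068 for *Abcb11*, -0.098 to 0.0025 for *Baat*, -0.52 to 0.046 for *Cyp7a1*, -0.29 to 0.029 for *Cyp8b1* and -0.18 to 0.26 for *Nr0b2*. It gave -0.064 to 0.22 for *Nr0b2* (genotype, fed), -0.051 to 0.035 for *Cyp27a1* (genotype, fasted) and -0.056 to 0.052 for *Abcb11* (refeeding, mutant). For refed against fed it gave -0.019 to 0.11 (mutant) and -0.033 to 0.082 (wild-type) for *Fgfr4*, and -0.049 to 0.11 for *Klb* (mutant).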
